A study of Homo sapiens with 6 samples.

Results

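Messenger RNA of 9 genes for enzymes that make, convert or remove deoxynucleotides was examined in an established human fibrosarcoma line, HT-1080, that had been exposed for 4 h to a kinase inhibitor. The genes were RRM1, RRM2, RRM2B, TYMS, TK1, DCK, DUT, DTYMK and SAMHD1, chosen by symbol from the 20683 gene symbols counted. All 9 were found and all 9 passed the filter on low counts, among 11391 genes tested. The treated group had the compound SLV-8472-01, known by this code and described by the series as inhibiting IRAK4, the kinase that acts with MYD88 below Toll-like and interleukin-1 receptors, at a labelled dose of 5 mM. The control group had 0.1% DMSO, the solvent. The dose is given as labelled, since the label leaves unsaid if it refers to the culture medium or to a stock solution. Both groups were of the same line, grown in the same serum-containing medium, with 3 libraries each that the series design describes as biological replicates. The comparison asked which genes of HT-1080 cells differ after 4 h with the inhibitor.

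Libraries of the AmpliSeq transcriptome panel, in which a part of each targeted transcript is amplified by PCR, held 7644478 to 11427779 counts with the inhibitor and 12003104 to 15336351 with DMSO, so the library totals did not overlap between the groups. Levels are given as CPM, the counts of a gene in every 1000000 counts of its library after TMM scaling in edgeR, and levels of different genes are not compared, because each gene was measured through its own amplified part. All 8 fibroblast and sarcoma markers averaged over 1 CPM, with sums of 7983 to 10210 CPM in inhibitor libraries and 7609 to 8497 CPM in DMSO libraries. Of these 8, 5 rose with the inhibitor (62.5%) and 0 fell, beside 9.92% and 10.3% of all genes tested. None of 6 leukocyte markers, 1 of 5 endothelial markers and 3 of 6 epithelial markers averaged over 1 CPM. The epithelial genes were KRT8, KRT18 and CLDN4, while CDH1 had no count and EPCAM had 3 counts in all. The summed epithelial level was 236.2 to 287.8 CPM with the inhibitor and 253.5 to 277.5 CPM with DMSO. The part of these markers in the results was not tested.

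Deoxynucleotides are made from ribonucleotides by ribonucleotide reductase, which pairs a large catalytic subunit, encoded by RRM1, with a small radical-bearing subunit. RRM2 encodes the small subunit of dividing cells, an E2F target whose mRNA peaks in S phase, and RRM2B encodes a closely related small subunit that is a p53 target and serves repair and mitochondrial DNA in resting cells. Thymidylate is made by TYMS from the dUMP that DUT releases from dUTP, or by TK1 from salvaged thymidine. It is phosphorylated further by DTYMK. DCK salvages deoxycytidine and purine deoxynucleosides, and SAMHD1 breaks deoxynucleotides down. RRM1, RRM2, TYMS, TK1, DUT and DTYMK were grouped as S-phase genes driven by E2F factors, RRM2B as driven by p53, and DCK and SAMHD1 were placed in neither group.

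The promoters of 5 members are shown because these genes, all of the S-phase group, range from the clearest fall of the set to no called change. DTYMK, also of that group and not called, has its matches described below without its sequence. Each run is the 250 bases before an annotated start, 5′ to 3′ on the gene's strand, from RefSeq on GRCh38.p14. Capitals mark exact matches, on either strand, to the E2F-type motifs TTTGGCGC, TTTCCCGC and TTTCGCGC, to the TTTGAA motif known as the cell cycle homology region (CHR), or to the CCAAT box, the site of the factor NF-Y.
RRM2, start 1, chr2:10122489-10122738, + strand: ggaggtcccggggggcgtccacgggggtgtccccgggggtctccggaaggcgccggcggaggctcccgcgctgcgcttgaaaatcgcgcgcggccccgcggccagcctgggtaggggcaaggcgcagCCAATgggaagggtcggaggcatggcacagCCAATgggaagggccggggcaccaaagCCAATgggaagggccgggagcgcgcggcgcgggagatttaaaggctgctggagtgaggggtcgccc
RRM1, chr11:4094435-4094684, + strand: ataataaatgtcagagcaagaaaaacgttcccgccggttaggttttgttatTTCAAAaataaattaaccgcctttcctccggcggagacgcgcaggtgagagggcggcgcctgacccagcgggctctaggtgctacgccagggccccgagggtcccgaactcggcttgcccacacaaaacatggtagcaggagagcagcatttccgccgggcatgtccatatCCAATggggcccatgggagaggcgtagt
TYMS, chr18:657403-657652, + strand: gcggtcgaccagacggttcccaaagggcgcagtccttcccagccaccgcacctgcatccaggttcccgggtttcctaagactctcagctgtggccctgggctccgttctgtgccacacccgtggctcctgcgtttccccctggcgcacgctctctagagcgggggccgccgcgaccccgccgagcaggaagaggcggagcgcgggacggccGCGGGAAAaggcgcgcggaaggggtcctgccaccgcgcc
DUT, start 4, chr15:48331947-48332196, + strand: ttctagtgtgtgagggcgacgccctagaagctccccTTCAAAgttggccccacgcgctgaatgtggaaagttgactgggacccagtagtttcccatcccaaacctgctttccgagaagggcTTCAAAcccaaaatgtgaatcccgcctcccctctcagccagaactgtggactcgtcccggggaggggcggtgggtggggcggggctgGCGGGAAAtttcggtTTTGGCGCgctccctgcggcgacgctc
TK1, start 2, chr17:78187053-78187302, - strand: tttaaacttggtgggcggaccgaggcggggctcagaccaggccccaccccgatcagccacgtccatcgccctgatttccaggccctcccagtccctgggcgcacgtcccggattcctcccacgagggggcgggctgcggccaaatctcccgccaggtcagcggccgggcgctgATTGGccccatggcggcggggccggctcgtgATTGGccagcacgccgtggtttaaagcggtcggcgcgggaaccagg

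The window of RRM2 start 1 held 3 CCAAT boxes, while start 2, not shown, held 1. The window of TK1 start 2 held 2, read on the opposite strand, while start 1, not shown, held no match. TYMS held an E2F-type match, TTTCCCGC on the opposite strand, at -39 to -32 from its start. DUT start 4 held 2 such matches, at -42 to -35 and at -27 to -20, and 2 CHR matches. Starts 1, 2 and 3 of DUT, not shown, held no match. For RRM2, TK1 and DUT, the start shown was thus the one with the most matches. The shares of single windows given below are not a like comparison for these genes. RRM1 held a CCAAT box at -28 to -24 and a CHR match at -199 to -194. Matches were sought in windows of 300 bases, of which 50 follow the start. Windows were found for 8 of the 9 members, at 13 annotated starts, and the member without a window was RRM2B. The promoters therefore give no contrast of RRM2B with the S-phase group. Of the members not shown, DCK held an E2F-type match after its start, at 21 to 28, DTYMK held 2 CCAAT boxes and SAMHD1 held 2. No E2F-type match was found in RRM2, RRM1, TK1 or DTYMK, though these were grouped as driven by E2F factors. The grouping did not rest on these matches. None of the matches in members overlapped. Of 35116 such windows in the table, 2.74% held any of the 3 E2F-type motifs, 15.2% the CHR motif and 34.6% a CCAAT box, while 10.8% held at least 2 CCAAT boxes and 3.26% at least 3. A match describes letters and does not show a bound factor.

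**Figure D1:**
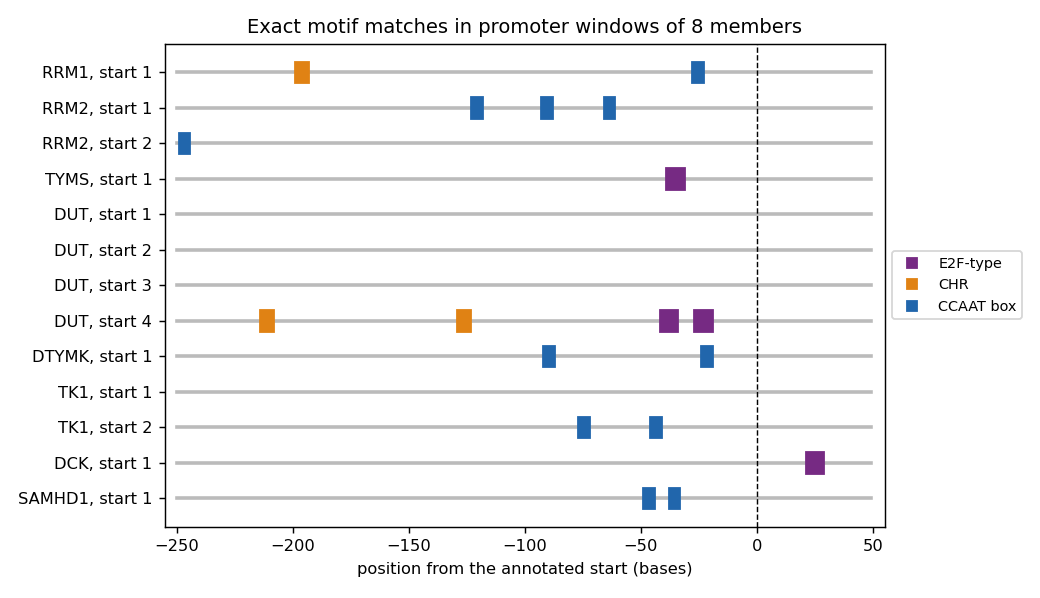
Exact motif matches in the promoter windows of 8 members, by position in bases from each annotated start (dashed line), with a grey line for each window. E2F-type matches are seen in TYMS, DUT start 4 and DCK, and CCAAT boxes are most frequent in RRM2 start 1, with 3.

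Of the 9 members, 4 fell (RRM2, RRM1, TYMS and DCK) and 1 rose (RRM2B) with the inhibitor, by edgeR's quasi-likelihood test at a Benjamini-Hochberg adjusted p under 0.05. Over all genes tested, 10.3% fell and 9.92% rose. The median log2 fold change was -0.27 over the members and 0.0034 over all genes tested. The falls were of unequal firmness. The number of members that fell was 1, RRM2, without inhibitor replicate 1, without DMSO replicate 2, and in a test against a fold of 1.2, in which 3.34% of all genes fell and 3.94% rose. RRM2B was called in every one of the 16 alternatives run, and so was RRM2. Library totals were lower with the inhibitor. When all libraries were thinned to an equal total, 4 members fell and 1 rose. Thinning drops counts at random and keeps the make-up of each library. It cannot separate the inhibitor from a bias that goes with the totals, which did not overlap between the groups. Scaling by library totals alone gave 831 genes that rose and 1714 that fell, against 1130 and 1168 with TMM, and added DUT to the members that fell. In bulk RNA, fewer cells in S phase and less mRNA in each cell cannot be told apart.

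**Figure D2:**
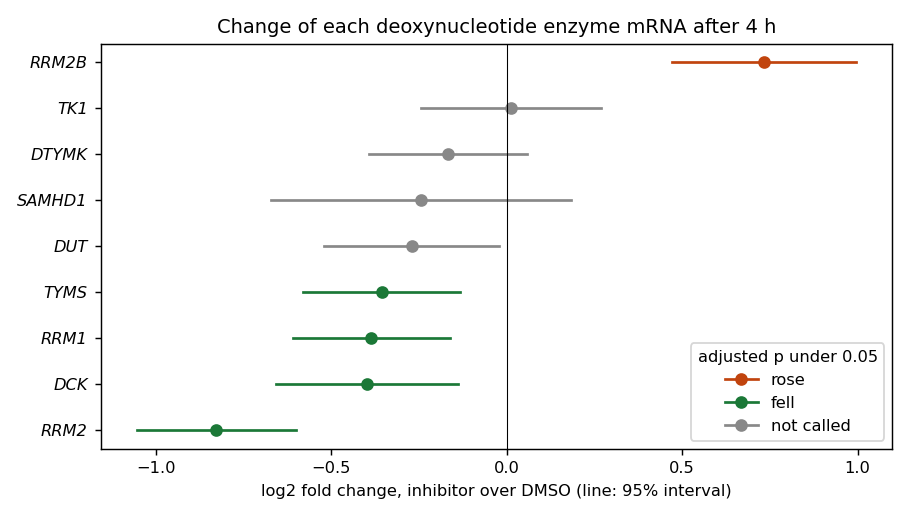
log2 fold change of each member, inhibitor over DMSO, with its 95% interval from the edgeR fit (3 libraries a group), coloured by call. RRM2 lies lowest at -0.83, RRM2B alone lies above 0 with its whole interval, and TK1 sits at 0.01.

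RRM2, the small subunit of dividing cells, had 86.2, 98.8 and 77.0 CPM with the inhibitor, against 144.5, 161.0 and 159.7 CPM with DMSO. Every inhibitor library lay below every DMSO library, with a wide gap. Its mean was 87.3 ± 10.9 CPM with the inhibitor and 155.1 ± 9.20 CPM with DMSO (SD, n = 3 each), a log2 fold change of -0.83 ± 0.11 (SE, edgeR adjusted p = 1.21e-05). That is 56.4% of the DMSO level (95% interval 48.2% to 66.0%). Among the log2 fold changes of all genes tested it lay at the 1.69 percentile. Left-out libraries gave values from -0.92 to -0.75.

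RRM1, the large catalytic subunit that both small subunits need, had 65.7, 82.4 and 77.7 CPM with the inhibitor, against 96.4, 98.9 and 99.4 CPM with DMSO. The groups did not overlap, and the DMSO libraries were within a few CPM of each other. Its mean was 75.3 ± 8.58 CPM with the inhibitor and 98.2 ± 1.58 CPM with DMSO (SD, n = 3 each), a log2 fold change of -0.39 ± 0.11 (edgeR adjusted p = 0.0139). The call was lost without inhibitor replicate 1 (edgeR adjusted p = 0.077), the library with the lowest RRM1, and without DMSO replicate 2 (0.0518).

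RRM2B, the p53-driven small subunit, went the opposite way. It had 33.9, 30.2 and 38.3 CPM with the inhibitor, against 18.4, 22.2 and 20.9 CPM with DMSO, from raw counts of 378, 278 and 286 with the inhibitor and 289, 344 and 251 with DMSO. All inhibitor libraries lay above all DMSO libraries in CPM. The mean was 34.2 ± 4.05 CPM with the inhibitor and 20.5 ± 1.93 CPM with DMSO (SD, n = 3 each), a log2 fold change of 0.73 ± 0.13 (edgeR adjusted p = 0.000267). This placed RRM2B at the 96.2 percentile of log2 fold changes of all genes tested. RRM2 and RRM2B are similar in sequence, and how reads shared between them would have been counted is not given in the sources used here.

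**Figure D3:**
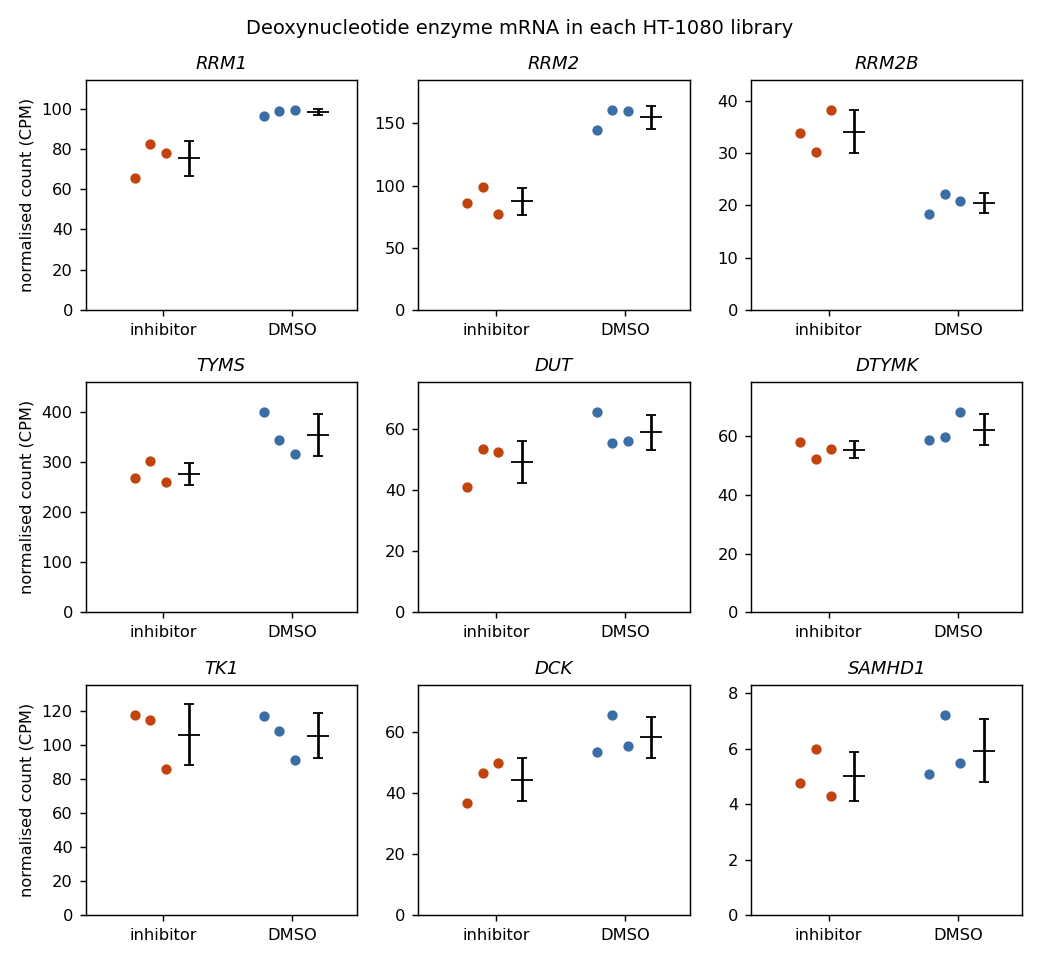
Normalised counts (CPM) of each member in each library, with inhibitor libraries left and DMSO libraries right, and the mean ± SD beside them. RRM2B is higher in all inhibitor libraries, RRM2, RRM1, TYMS, DUT, DTYMK and DCK are lower in all of them, and TK1 and SAMHD1 overlap.

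A ratio of 2 genes within a library needs no scaling between libraries. For each count of RRM2 there were 0.393, 0.306 and 0.497 counts of RRM2B in inhibitor libraries, against 0.127, 0.138 and 0.131 in DMSO libraries. The DMSO ratios were nearly the same, and the inhibitor ratios were all higher and more spread. The ratio averaged 0.399 ± 0.0957 with the inhibitor and 0.132 ± 0.0054 with DMSO (SD, n = 3 each). The log2 ratio differed by 1.57, a 2.97-fold difference (p = 0.1 by a two-sided exact permutation test, which cannot go lower with 3 against 3). With RRM2B higher and RRM2 lower in every inhibitor library, this p followed from their separate levels. It adds no support to them. Without each library in turn the difference was 1.40 to 1.75. Because the amplified parts differ, such a ratio compares the groups and does not give the relative amounts of the 2 subunits.

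The ratio of RRM2B to RRM1, the partner of both small subunits, was 0.459 ± 0.0800 with the inhibitor and 0.208 ± 0.0170 with DMSO (SD, n = 3 each), a difference of 1.13 in log2. Against the other S-phase genes the log2 ratio of RRM2B was higher by 1.09 for TYMS, 1.01 for DUT, 0.90 for DTYMK and 0.73 for TK1. RRM2 in turn was lower relative to RRM1, with log2 ratios of 0.39, 0.26 and -0.01 in inhibitor libraries, against 0.58, 0.70 and 0.68 in DMSO libraries. Its log2 ratio was also lower by values of -0.48 to TYMS, -0.56 to DUT, -0.67 to DTYMK and -0.84 to TK1. All of these ratios, RRM2B to RRM2 among them, were chosen with results of these data known. Those other than RRM2B to RRM2 are given as a description, with no test. The groups did not overlap in any of the 11 ratios, but each has RRM2B or RRM2 as its numerator, and the levels of these 2 genes did not overlap by themselves, so the ratios are not separate observations.

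**Figure D4:**
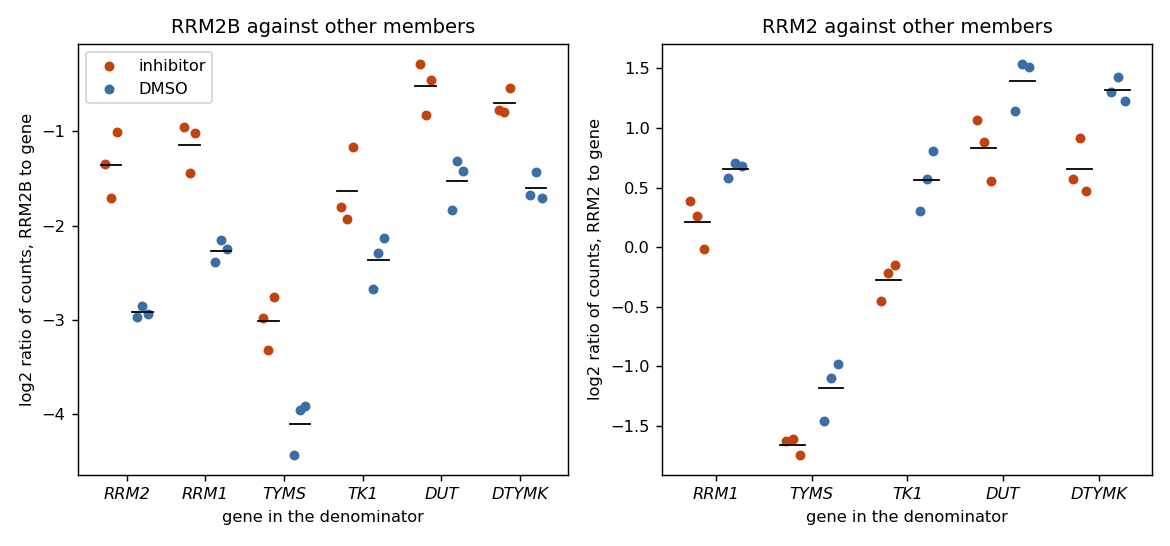
log2 ratio of the counts of RRM2B (left panel) or RRM2 (right panel) to those of other members within each library, with the group mean as a bar. The ratios of RRM2B are higher in every inhibitor library than in any DMSO library, and those of RRM2 are lower.

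Among the genes of thymidylate supply, TYMS, the enzyme that methylates dUMP and the target of fluorouracil, had 267.2, 301.3 and 258.9 CPM with the inhibitor, against 398.8, 344.5 and 315.8 CPM with DMSO. The highest inhibitor library came close to the lowest DMSO library without reaching it. The mean was 275.8 ± 22.5 CPM with the inhibitor and 353.0 ± 42.1 CPM with DMSO (SD, n = 3 each), and the log2 fold change -0.36 ± 0.11 (edgeR adjusted p = 0.0218). The call was lost without inhibitor replicate 1 (edgeR adjusted p = 0.0635), inhibitor replicate 3 (0.0555), DMSO replicate 1 (0.132) or DMSO replicate 2 (0.0548). The exons of TYMS overlap those of ENOSF1 on the opposite strand in GENCODE release 29, and the strand setting of the counting is not given. ENOSF1, looked up for this overlap, was at 20.6 ± 3.51 CPM with the inhibitor and 20.2 ± 0.756 CPM with DMSO (SD, n = 3 each; edgeR adjusted p = 0.881). Its log2 fold change of 0.04 was negative with library totals as the scaling and without inhibitor replicate 1 or 2.

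DUT, the dUTPase that keeps uracil out of DNA and supplies dUMP, had 41.2, 53.6 and 52.4 CPM with the inhibitor, against 65.5, 55.3 and 56.0 CPM with DMSO. The groups did not overlap but came within 2 CPM of each other. The log2 fold change of -0.27 ± 0.12 was not called (edgeR adjusted p = 0.119), and its 95% interval ran from -0.52 to -0.02. With library totals as the scaling it was called (edgeR adjusted p = 0.0431). GENCODE names 8 pseudogenes of DUT, 3 of RRM2 and 2 of TYMS. Whether these affected the counts of DUT, RRM2 or TYMS was not tested. Exons of 6 members (RRM1, RRM2, TYMS, DCK, DUT and SAMHD1) overlap another gene in that annotation.

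DTYMK, the kinase that turns dTMP into dTDP, had 58.0, 52.3 and 55.7 CPM with the inhibitor, against 58.6, 59.8 and 68.2 CPM with DMSO. The groups were adjacent, the highest inhibitor library lying just under the lowest DMSO library. Its log2 fold change was -0.17 ± 0.11 (edgeR adjusted p = 0.300; 95% interval -0.39 to 0.06). Non-overlap was common in this comparison: over all genes tested, the inhibitor libraries all lay lower for 18.7% and all higher for 17.7%, against 6 and 1 of the 9 members.

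TK1, the S-phase salvage kinase of thymidine, had 118.0, 115.1 and 85.8 CPM with the inhibitor, against 117.1, 108.5 and 91.2 CPM with DMSO. The groups overlapped throughout, and in each the library numbered 3 was the lowest. The means were 106.3 ± 17.8 CPM with the inhibitor and 105.6 ± 13.2 CPM with DMSO (SD, n = 3 each). The log2 fold change was 0.01 ± 0.12 (edgeR adjusted p = 0.957), with a 95% interval of -0.24 to 0.27, or 84.4% to 120.4% of the DMSO level. Its sign changed under 6 of the 16 alternatives. The whole 95% interval of RRM2, which ends at -0.60, lies below that of TK1. The RRM2 to TK1 ratio was 0.730, 0.858 and 0.898 in inhibitor libraries, against 1.23, 1.48 and 1.75 in DMSO libraries.

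DCK, the kinase that activates deoxycytidine and drugs such as cytarabine and gemcitabine, had 36.6, 46.7 and 49.98 CPM with the inhibitor, against 53.4, 65.7 and 55.6 CPM with DMSO. The groups did not overlap. Its log2 fold change was -0.40 ± 0.13 (edgeR adjusted p = 0.0275), about the size of that of RRM1. The call was lost without inhibitor replicate 1 (edgeR adjusted p = 0.158), in which DCK was lowest, and without DMSO replicate 2 (0.162), in which it was highest.

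SAMHD1, the triphosphohydrolase that removes deoxynucleotides, was the member with the fewest counts, 53, 55 and 32 with the inhibitor and 80, 112 and 66 with DMSO. These were 4.75, 5.98 and 4.29 CPM with the inhibitor, against 5.09, 7.23 and 5.49 CPM with DMSO. The groups overlapped. The log2 fold change of -0.24 ± 0.21 was not called (edgeR adjusted p = 0.437), and the 95% interval, the widest of the members, ran from -0.67 to 0.18. A change of the size seen for RRM2 would lie outside that interval, while one of the size seen for RRM1 would lie within it.

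The 9 genes together took 0.0694%, 0.0765% and 0.0684% of the counts in inhibitor libraries, against 0.0981%, 0.0966% and 0.0874% in DMSO libraries, with no overlap. Such a sum is weighted towards genes with many counts and does not show the rise of RRM2B. TYMS alone held 2980 of 7935 counts in inhibitor replicate 1 and 6265 of 15048 in DMSO replicate 1. Of the 6 S-phase members, 3 fell and 0 rose, beside 10.3% and 9.92% of all genes tested, with log2 fold changes from -0.83 to 0.01. Without inhibitor replicate 1, without DMSO replicate 2 or in the test against a fold of 1.2, only RRM2 of these 6 was called.

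By the likeness of centred log2 CPM over the 6 libraries, among 7951 other genes of at least 10 CPM, the closest to RRM2 were THRAP3 (root mean square difference 0.0367), SASS6 (0.0451) and SKP2 (0.0486). THRAP3 encodes a splicing and transcription factor, SASS6 a centriole protein and SKP2 a ubiquitin ligase subunit that degrades the CDK inhibitor p27. Their log2 fold changes were -0.76 ± 0.11, -0.80 ± 0.16 and -0.81 ± 0.11. The closest to RRM2B were IFNGR1 (0.0895), an interferon gamma receptor subunit, DNAL4 (0.0917), a dynein light chain, and SYNE1 (0.0962), a nuclear envelope protein. Their log2 fold changes were 0.64 ± 0.16, 0.66 ± 0.15 and 0.66 ± 0.15. Since likeness was measured over the same libraries, changes close to those of RRM2 and RRM2B follow from the choice of these genes and are given as a description.

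Genes of the regulators were counted from lists, several of whose results were already known. One list held 20 genes, those of E2F factors, pocket proteins and G1 cyclins, with TFDP1, TFDP2, CDK2, CDK4 and CDK6. Of these, 10 fell and 0 rose, beside 10.3% and 9.92% of all genes tested. By the naming rule these included CCNE2, encoding cyclin E2 (6.25 ± 0.416 CPM with the inhibitor and 18.7 ± 1.28 CPM with DMSO), RBL1, encoding the pocket protein p107 (13.0 ± 2.39 CPM with the inhibitor and 27.1 ± 1.25 CPM with DMSO), and CCND3, encoding cyclin D3 (20.9 ± 0.916 CPM with the inhibitor and 33.6 ± 1.58 CPM with DMSO; SD, n = 3 each). E2F1, an activator of S-phase genes named outside the rule, had 44.7, 60.1 and 38.2 CPM with the inhibitor, against 75.4, 70.3 and 75.0 CPM with DMSO (log2 fold change -0.62 ± 0.13, edgeR adjusted p = 0.00172). All inhibitor libraries of E2F1 were lower. Other genes of the list, also named outside the rule, were not called and had positive log2 fold changes. RBL2 was at 0.23 ± 0.11 and higher in every inhibitor library than in any DMSO library (edgeR adjusted p = 0.138). E2F5 was at 0.29 ± 0.21, E2F4 at 0.15 ± 0.10, E2F7 at 0.13 ± 0.13 and TFDP2 at 0.10 ± 0.12.

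Of 25 tested genes of the p53 pathway, 14 rose (56%) and 0 fell, beside 9.92% and 10.3% of all genes tested. The other 11 were not called, and 1 gene of the list fell with library totals as the scaling. GDF15, a secreted stress factor, was at 315.9 ± 48.8 CPM with the inhibitor and 112.9 ± 7.49 CPM with DMSO, and the antiproliferative gene BTG2 at 26.0 ± 3.95 CPM with the inhibitor and 11.5 ± 0.483 CPM with DMSO. The kinase gene PLK3 was at 22.4 ± 1.14 CPM with the inhibitor and 12.7 ± 1.93 CPM with DMSO (SD, n = 3 each). CDKN1A and MDM2, a CDK inhibitor and the p53 ubiquitin ligase, both classical p53 targets named outside the rule, rose by 0.57 ± 0.12 and 0.42 ± 0.10 in log2, less than RRM2B. The difference from RRM2B was not tested. Other p53 targets of the list, also named outside the rule, were not called and had negative log2 fold changes. These were -0.22 ± 0.10 for BAX, a promoter of apoptosis that was lower in every inhibitor library than in any DMSO library (edgeR adjusted p = 0.140), -0.25 ± 0.13 for POLH, a translesion polymerase, and -0.27 ± 0.14 for PPM1D, a phosphatase that acts on p53. Of other regulators of RRM2B, FOXO3 was at 26.5 ± 1.25 CPM with the inhibitor and 30.2 ± 2.28 CPM with DMSO (edgeR adjusted p = 0.284), and TP73 had 4 counts in all 6 libraries together and was not tested.

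**Figure D5:**
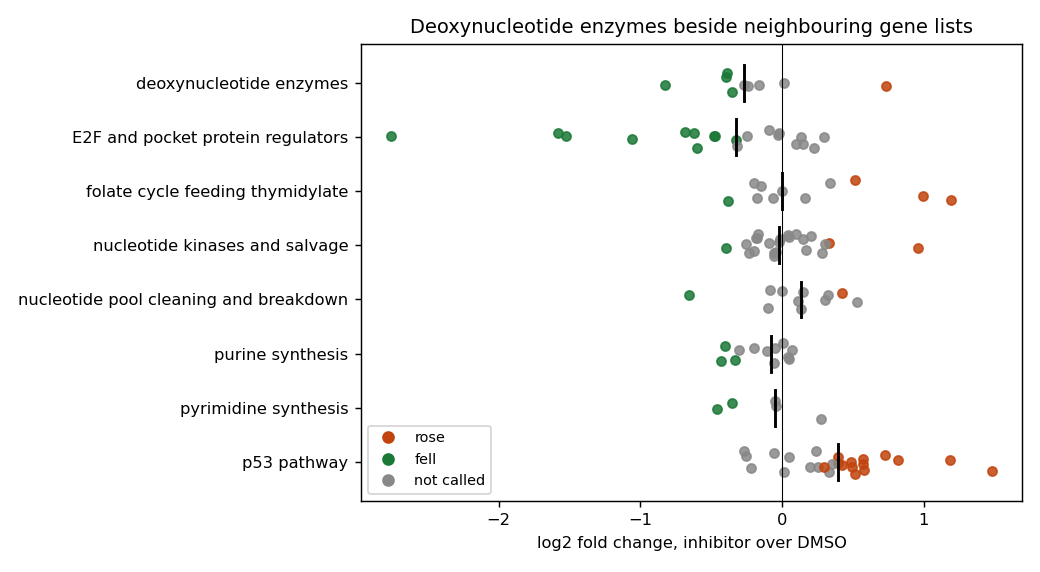
log2 fold change of each tested gene, inhibitor over DMSO, in the deoxynucleotide enzymes and in neighbouring gene lists, coloured by call, with the list's median as a bar. The E2F regulators that were called fell and the p53 pathway genes that were called rose, while the purine, salvage and folate lists centre near 0.

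Over all genes tested, 9.92% rose and 10.3% fell. Of 11 genes of the folate cycle, which carries the methyl group for TYMS, 3 rose (27.3%) and 1 fell (9.09%). Without inhibitor replicate 1, 0 of these 11 fell. Among those that rose were SHMT2 (0.51 ± 0.10 in log2), a mitochondrial enzyme that moves a carbon from serine onto folate, and MTHFD2 (1.19 ± 0.10), a mitochondrial enzyme that oxidises the folate so charged. MTHFD2 was at 869 ± 39.4 CPM with the inhibitor and 380.9 ± 24.8 CPM with DMSO, and SHMT2 at 167.1 ± 7.63 CPM with the inhibitor and 116.9 ± 10.5 CPM with DMSO (SD, n = 3 each).

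Ribonucleotide synthesis supplies the substrates of the reductase. Of 12 purine synthesis genes, 3 fell (25%) and 0 rose, beside 10.3% that fell and 9.92% that rose over all genes tested. They were GMPS (-0.43 ± 0.11), which makes GMP, PRPS1 (-0.40 ± 0.11), which makes the ribose donor PRPP, and PPAT (-0.33 ± 0.11), the committing enzyme. None was called without inhibitor replicate 1, and 1 was called without DMSO replicate 2. Of 5 pyrimidine synthesis genes, 2 fell (40%) and 0 rose, and 1 rose without DMSO replicate 3. CTPS1, which makes CTP, was at 99.9 ± 2.29 CPM with the inhibitor and 137.6 ± 10.2 CPM with DMSO (SD, n = 3 each), and UMPS, which makes UMP, fell by 0.35 in log2. The call of UMPS was lost on leaving out inhibitor replicate 1 or 2, or DMSO replicate 2 or 3 (edgeR adjusted p from 0.0749 to 0.152).

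Of 23 tested nucleotide kinase and salvage genes other than members, 2 rose (8.7%), 1 fell (4.35%) and 20 were not called. Both shares were below those over all genes tested, 9.92% and 10.3%. With library totals as the scaling, 1 of these genes rose and 3 fell. AK4, a mitochondrial adenylate kinase, fell by 0.39 in log2, a call lost without inhibitor replicate 1 (edgeR adjusted p = 0.054) or DMSO replicate 2 (0.0527). APRT, which salvages adenine, rose by 0.33 ± 0.11, and its call was lost on leaving out inhibitor replicate 2 or 3, or DMSO replicate 2 or 3 (edgeR adjusted p from 0.0514 to 0.209) and with library totals as the scaling (0.0785). The other gene that rose, UPP1, lay under the 5 CPM of the naming rule. Of 11 genes that clean or break down nucleotide pools, DCTPP1, which hydrolyses dCTP and modified forms of it, fell to 44.0 ± 7.99 CPM with the inhibitor, against 69.7 ± 14.7 CPM with DMSO (SD, n = 3 each; log2 fold change -0.66 ± 0.14, edgeR adjusted p = 0.00255). NT5C, a nucleotidase acting on deoxynucleotide monophosphates, rose by 0.42 ± 0.11, a call lost without DMSO replicate 2 (edgeR adjusted p = 0.0634) or DMSO replicate 3 (0.0505).

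Genes of ubiquitin ligases listed for the turnover of the RRM2 and TK1 proteins were CCNF, FZR1, CDC20, CDC27 and ANAPC2. CCNF and FZR1 were not called (edgeR adjusted p = 0.157 and 0.277), nor were CDC27 (0.277) and ANAPC2 (0.729). Of these 5 genes, 1 fell (20%) and 0 rose. It was CDC20, an activator of the anaphase-promoting complex, at 87.3 ± 16.3 CPM with the inhibitor and 112.2 ± 9.89 CPM with DMSO (SD, n = 3 each; edgeR adjusted p = 0.0428). That call was lost in 7 of 16 alternatives, among them leaving out inhibitor replicate 1 or 3 or DMSO replicate 1 or 3 (edgeR adjusted p from 0.0522 to 0.184). An action of CDC20 on the RRM2 or TK1 protein was not measured. Over these lists and those of the regulators together, 113 genes were tested, of which 19 fell (16.8%) and 20 rose (17.7%). The shares over all genes tested were 10.3% and 9.92%. Of the list genes, 12 fell without inhibitor replicate 1.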

How the data were processed

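Transcripts of 6 HT-1080 samples were amplified with the Ion AmpliSeq Transcriptome panel and sequenced by Ion Proton, per the labels' protocols and the series design. The authors deposited a table of raw read counts, not normalised, for each library. The submitters' processing notes name HTSeq, hg19 and DESeq2 1.20.0 without their roles. The aligner, annotation and strand setting of the counting were not given in the sources used here. RefSeq promoters are on GRCh38.p14, and no position was taken across builds.

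The deposited counts were fitted with edgeR 4.0.16 in R 4.3.3 (filterByExpr, TMM, glmQLFit and glmQLFTest, inhibitor minus DMSO, no covariates), with Benjamini-Hochberg adjustment over 11391 genes. The words rose and fell refer to adjusted p under 0.05. The SE was obtained from the log2 fold change and the F statistic. Alternatives used limma 3.58.1, DESeq2 1.42.0 and the settings named in the closing section, and the procedure was tested on simulated counts. Within groups, pairs of libraries had a chi-square per degree of freedom of 9.32 to 14.7, above sampling noise, and each was counted as a replicate. Reads of PCR products lack molecular identifiers, so the floor of 3 counts (0.196 to 0.392 CPM) covers counting error only. The members, the lists and the tests were chosen with earlier results of these data known. The naming rule took all members, and from each list up to 3 called genes in each direction with the largest log2 fold change and at least 5 CPM, or the gene with the smallest p where none was called. It also took the 3 genes of at least 10 CPM most like RRM2 and RRM2B. Some genes selected by the rule are not reported here.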

Additional observations from a re-analysis of the deposited data

How the results depend on the processing

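Of the results on members, RRM2 and RRM2B kept their direction and call in all 16 alternatives, with log2 fold changes of -0.92 to -0.75 and 0.62 to 0.81. The number of members that fell was 4 and ranged from 1 to 4 with each library left out, was 1 with glmTreat of edgeR at a fold of 1.2 and 5 with library totals as the scaling. The number that rose was 1 throughout. Over all genes, 2298 were called, with 1405 to 2246 when a library was left out and 829 with glmTreat. Of genes of the wider lists, 12 to 18 fell with a library left out and 7 with glmTreat, in which 10 rose, and with glmTreat 6 E2F and pocket protein regulators fell and 6 p53 pathway genes rose. TK1, never called, had log2 fold changes of -0.062 with library totals, -0.00499 with no count filter, -0.033 in thinned libraries, and -0.086 to 0.14 with a library left out. ENOSF1, never called, had -0.036 with library totals and -0.057 to 0.16 with a library left out. The cause of these shifts was not tested. The labels number the replicates 1 to 3 in both groups, but same-numbered libraries did not deviate together (correlations 0.0583, -0.00874 and 0.0148), so the numbers were not taken as pairs. With the replicate number as a block, 2223 genes were called, 4 members fell and 1 rose, 19 and 20 wider genes fell and rose, and the RRM2B to RRM2 ratio differed by 1.57 (exact sign-flip p = 0.25, the smallest possible). SAMHD1 was not tested at a minimum mean of 10 CPM. At 32 to 112 counts its interval remains wide.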
